A study of Mus musculus with 8 samples.

Results

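The genes described here are those whose products build, move along or sort cargo through cilia, taken from the hippocampal transcriptomes of wild-type and Mbd2-/- mice. They were chosen by symbol, as the genes named Dnah, Dnaic, Dnali, Rsph, Tekt, Spag, Ift or Bbs followed by a digit, together with Foxj1. The rule found 60 of the 19201 genes listed. Of these, 36 were grouped as axonemal (Dnah, Dnaic, Rsph, Tekt and Spag) and 22 as transport genes (Ift and Bbs), and Foxj1 and Dnali1 stood outside both groups. The wild-type group is called control in the labels and has the C57BL/6 background, and the other group carries the Mbd2-/- knockout allele in all cells, which removes the function of Mbd2, a reader of methylated CpG sites. Both groups were offspring of heterozygous parents and were 10 to 12 weeks old. Each group has 4 libraries, and each library is a pool of the hippocampi of 2 mice, so that a replicate is a pool and not an animal.

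Motile cilia are carried by the ependymal cells and the choroid plexus epithelium that line the ventricles. Their axoneme has a central pair of microtubules, radial spokes and inner and outer dynein arms that slide the outer microtubule doublets, and Foxj1 is the transcription factor that switches this programme on. Neurons and astrocytes carry a single primary cilium, which has no dynein arms and serves as a signalling antenna. Both kinds of cilium are built by intraflagellar transport. Its trains, made of the IFT-A and IFT-B complexes, run to the tip with kinesin-2 and return with cytoplasmic dynein. The BBSome, the complex of Bbs proteins, moves membrane receptors on these trains.

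Reads recovered from the deposited values ranged from 8439570 to 23790825 on genes in the wild-type libraries and from 8087750 to 14020765 in the Mbd2-/- libraries. Values below are normalized counts, that is reads divided by a size factor for the library, in which 1 read is worth 0.531 to 1.59. Log2 fold changes are differences of mean log2(normalized count + 1), Mbd2-/- over wild-type, so that low genes are understated. Called genes are those whose adjusted p in limma was under 0.05, where the Benjamini-Hochberg adjustment ran over the 14504 genes that averaged at least 10 normalized counts. Mbd2 itself was lower in the Mbd2-/- libraries, at 260 ± 54.3 (SD, n = 4) against 346 ± 34.4 (log2 fold change -0.43, adjusted p = 0.0174, limma). Replicate 3 of the Mbd2-/- group reached 339 and lay above wild-type replicate 1 at 295, and the exact two-sided permutation test gave p = 0.0571, where the smallest possible p is 0.0286. Exon 1 is intact in this allele, so that reads over the whole gene do not separate the genotypes fully. Mbd2-/- replicate 4 stood apart from its group. Its read counts differed from those of the other 3 Mbd2-/- libraries by 9.64 to 16.7 times the variance of counting, while all other pairs within a genotype lay between 2.05 and 6.46.

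The promoters of the cilium genes are shown first because RFX factors, which act with Foxj1 on ciliary genes, bind an element called the X-box. RefSeq windows of 300 bases (GRCm38.p6, 250 bases before to 50 after the annotated start) were at hand for 53 of the 60 genes, and none for Foxj1, Ift122, Ift80, Ift81, Rsph1, Rsph4a and Spag1. The letters GTTGCC, the core of an X-box arm, were found on either strand in 21 of the 53 windows (39.6%), in 13 of 33 axonemal and in 8 of 19 transport windows. Over all 27025 promoters of that table the share was 12.7%, and over the promoters of tested genes it was 13.1%. The forkhead core GTAAACA, searched on both strands as the kind of site Foxj1 binds, was found in 2 of the 53 windows (3.77%), those of Dnah17 and Tekt3, against 3.55% of all promoters and 2.32% of the promoters of tested genes. The motifs do not overlap each other in letters, and no window of the set held both. Among the 7 genes called below, the windows of Dnah10 (2 matches) and Ift172 held GTTGCC, those of Dnah8, Dnali1 and Ift74 held neither set of letters, and Foxj1 and Ift122 had no window. A match is a run of letters, and binding was not measured. The matches of Dnah10 and Ift172 follow with examples from genes that were not called, each as 30 bases in the direction of the gene, with GTTGCC or its reverse complement in capitals.
Dnah10, first match: cgcgctggcgccGTTGCCcaggtccccgtt
Dnah10, second match: gctagggtcgccGTTGCCacggacgcccgc
Ift172: tgtcgcactcacGTTGCCtgtgcgtcagcg
Dnaic2: ccagggttgctaGGCAACtggtaaactccg
Tekt1: tgcgtccgtccgGTTGCCatagagaccgca
Ift88: ggagtcgcgcctGGCAACggctgggcgtcc
Bbs7: gaatgcgccccgGTTGCCttggaaaccggc
On mm9, the build of the data, the Dnah10 sequences lie at chr5:125205423-125205452 and chr5:125205453-125205482 on the plus strand, with the capitals starting 20 bases before and 11 bases after the start of the gene. The Ift172 sequence lies at chr5:31593470-31593499 on the minus strand, and its capitals begin at the first base of the transcript. The Dnaic2 sequence lies at chr11:114588695-114588724 on the plus strand (26 bases before the start), that of Tekt1 at chr11:72175382-72175411 on the minus strand (15 before) and that of Ift88 at chr14:58042917-58042946 on the plus strand (22 after). The Bbs7 sequence is at chr3:36512415-36512444 on the minus strand (121 before).

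Cilium genes as a whole did not move in a common direction. Of the 60 genes, 56 passed the filter on low values and 7 of these were called, 4 higher (Foxj1, Dnah8, Dnali1 and Ift74) and 3 lower (Dnah10, Ift172 and Ift122). That is 12.5% of the tested members, beside 22.0% of all tested genes, with 7.14% higher beside 12.0% of all genes and 5.36% lower beside 10.0%. The 28 positive and 28 negative log2 fold changes had a median of -0.0060, and the median over all tested genes, of which 50.0% were negative, was -9.1e-05. In 9 of the 56 genes (16.1%) no library of either genotype reached the range of the other, against 23.6% of all tested genes (12.1% with Mbd2-/- higher and 11.5% with Mbd2-/- lower). These were Dnah8, Rsph3b, Ift20 and Ift74, which lay higher in every Mbd2-/- library, and Dnah9, Dnah10, Ift122, Ift140 and Ift172, which lay lower. At an unadjusted p under 0.05 from limma, 14 of the 56 members passed, beside 35.5% of all tested genes. Leaving out Mbd2-/- replicate 4 raised the called members to 7 higher and 10 lower, while the calls over all genes rose to 35.6% (17.9% higher and 17.7% lower). In the other settings used below, the shares of all genes called higher and lower were 12.4% and 9.96% with DESeq2, 12.5% and 9.8% with edgeR, 12.1% and 9.97% with limma-voom, 11.1% and 11.3% with upper quartile scaling, 8.29% and 6.83% without the filter on low values, 14.2% and 11.9% with a minimum mean of 50 and 12.0% and 9.99% with a replicate block.

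**Figure D1:**
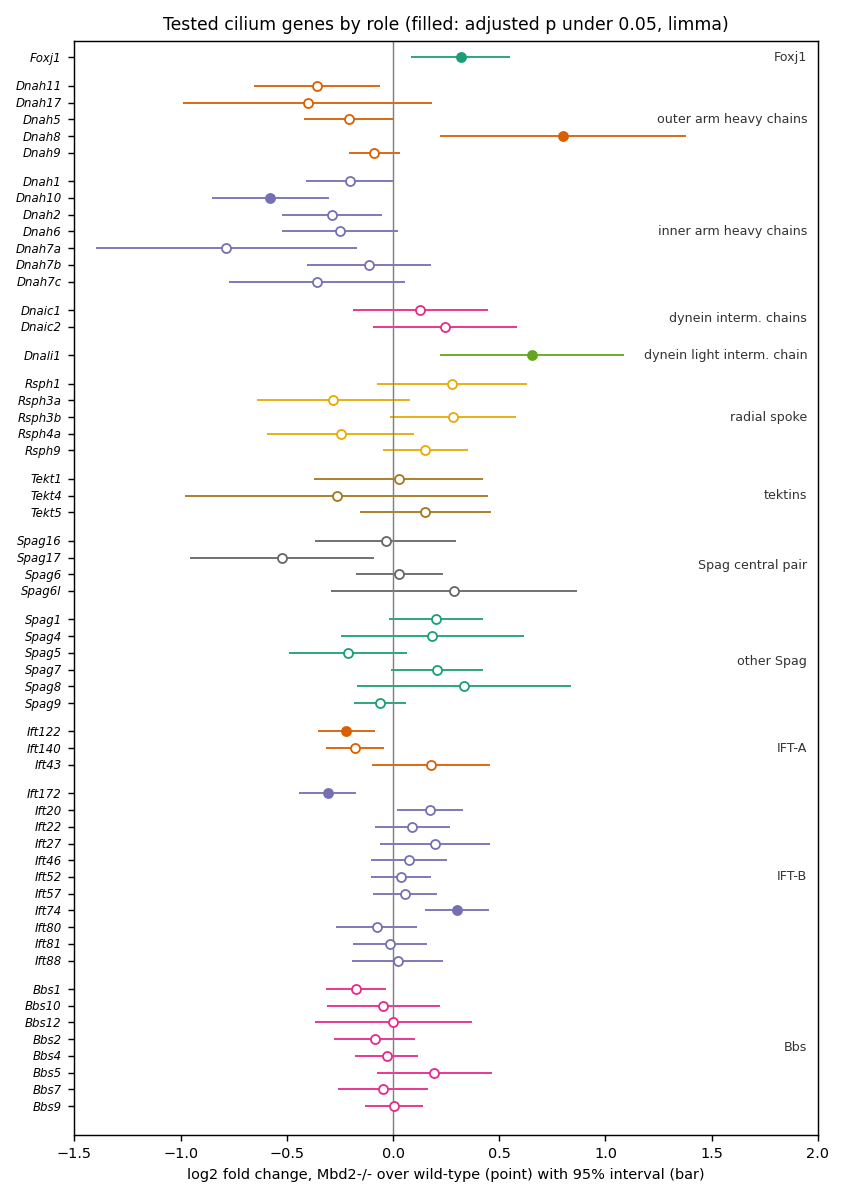
Log2 fold change of normalized counts (x axis, Mbd2-/- over wild-type) for each tested cilium gene (y axis), grouped by role, with points at the estimate and bars for the 95% interval from limma over 4 libraries a genotype. Filled points mark the 7 called genes, and of the 12 dynein heavy chains, the long motor subunits, 11 lie left of 0.

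Foxj1, the transcription factor of the motile cilium programme, was called higher in the Mbd2-/- hippocampi. It lies on chromosome 11 from 116192018 to 116196713 (mm9, minus strand). Its normalized counts were 246, 223, 247 and 232 in wild-type replicates 1 to 4, and 287, 293, 379 and 238 in Mbd2-/- replicates 1 to 4. Replicates 1 to 3 of the Mbd2-/- group lay above every wild-type value, and replicate 4 lay within the wild-type range. The log2 fold change was 0.32 with a standard error (SE) of 0.11 (adjusted p = 0.0472, limma), and the exact two-sided permutation test gave p = 0.0857. The call was close to the threshold. It was kept in 7 of the 11 alternatives with all libraries (adjusted p from 0.0228 to 0.0632, limma, DESeq2 or edgeR), and with 1 library left out it was kept only without Mbd2-/- replicate 4 (0.42, adjusted p = 7.0e-04) and lost in the other 7 cases. Without Mbd2-/- replicate 3 the log2 fold change was 0.20 (adjusted p = 0.123, limma). In bulk hippocampus, more ciliated cells in a sample and more RNA per cell cannot be told apart.

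Some markers of the cells that carry motile cilia were called higher in the Mbd2-/- libraries. All 24 choroid plexus markers had a positive log2 fold change and 23 were called higher, beside 12.0% of all tested genes, and their summed normalized counts were 26317 to 27922 in the wild-type and 49709 to 56164 in the Mbd2-/- libraries. Ttr, the transthyretin gene that marks choroid plexus epithelium, rose from 12761 ± 648 to 32066 ± 3323 (SD, n = 4). Of 12 ependymal markers, 4 were called higher (Calml4, Sntn, Rarres2 and Ccdc153) and 0 lower, beside 12.0% called higher among all tested genes and 34.9% among those with transcripts under 1500 bases, with sums of 391 to 458 in the wild-type and 520 to 598 in the Mbd2-/- libraries. Calml4 had the clearest increase of these, with 42.0, 47.4, 50.1 and 43.0 in wild-type replicates 1 to 4 and 101, 102, 94.0 and 76.9 in Mbd2-/- replicates 1 to 4 (log2 fold change 1.01, adjusted p = 1.5e-04, limma). Markers used as ependymal are also expressed in choroid plexus epithelium, whose cells carry motile cilia. The median length of their transcripts is 944 bases, and after the trend of fold change on transcript length was taken out 1 of the 12 was called. The other 8 ependymal markers ran from -0.14 in Riiad1 to 0.46 in Mia and were not called. None of the markers of either list was at 0 in any library, and the part of these cells in the values of Foxj1 and the axonemal genes was not tested.

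Of the 12 dynein heavy chains, the ATPase motors of the arms, Dnah10 was called lower, Dnah8 was called higher and 10 were not called. That is 16.7% called, beside 22.0% of all tested genes. Log2 fold changes were negative in 11 of the 12 genes (median over the 12 of -0.27), and of all 274 tested genes with a transcript of at least 10000 bases, the length of heavy chain transcripts, 83.9% were negative. With the trend of fold change on length removed, 7 of the 10 heavy chains with a usable length were negative and 3 positive, with a median of -0.073. Dnah10, a heavy chain of the inner arm, lies on chromosome 5 from 125205455 to 125314678 (plus strand). Its normalized counts were 103, 85.8, 118 and 102 in wild-type replicates 1 to 4 and 57.5, 77.7, 65.3 and 72.1 in Mbd2-/- replicates 1 to 4. Every Mbd2-/- value lay below every wild-type value, and the fold change was -0.58 ± 0.13 (log2, ± standard error, adjusted p = 0.0055 in limma). Dnah10 was called in all 11 alternatives with all libraries and in all 8 with 1 library left out.

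The remaining inner arm heavy chains (Dnah1, Dnah2, Dnah6, Dnah7a, Dnah7b and Dnah7c) were not called and had log2 fold changes from -0.78 to -0.11. Dnah6 was the most abundant, with 195, 175, 190 and 207 in wild-type and 146, 155, 132 and 222 in Mbd2-/- replicates 1 to 4. Its value in Mbd2-/- replicate 4 was the highest of all 8 libraries, and the log2 fold change was -0.25 (SE 0.13, adjusted p = 0.174, limma). Without that library it was -0.41 and was called (adjusted p = 0.0017, limma). Dnah7a had the largest negative value among the 56 genes that passed the filter, -0.78 (adjusted p = 0.0626, limma), on 28.5, 18.8, 27.3 and 36.1 in wild-type and 7.66, 17.4, 20.7 and 19.2 in Mbd2-/- replicates 1 to 4. Without Mbd2-/- replicate 1, the lowest library, it was -0.48 (adjusted p = 0.187, limma), and Dnah7a was called in 3 of the 8 omissions of a single library. Dnah7a, Dnah7b and Dnah7c are near-identical copies on chromosome 1, and the division of reads among them is uncertain.

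The outer arm heavy chains differed among themselves. Dnah9, a motor of the outer arms of airway cilia, was the most abundant heavy chain, with 668, 680.1, 700.1 and 654 in wild-type and 638, 639, 647 and 617 in Mbd2-/- replicates 1 to 4. All Mbd2-/- values lay below all wild-type values, yet the difference was small (log2 fold change -0.09, SE 0.06, adjusted p = 0.280, limma). Dnah5 and Dnah11, the other heavy chains of such outer arms, had -0.21 (adjusted p = 0.144, limma) and -0.36 (0.0764), and Dnah17, described mainly in sperm, had -0.40 (0.319). Dnah8, also described mainly in sperm, went the other way. It lies on chromosome 17 from 30761299 to 31012209 (plus strand), with 10.5, 15.8, 8.20 and 12.2 in wild-type and 16.6, 19.2, 17.5 and 31.7 in Mbd2-/- replicates 1 to 4. The groups did not overlap, with a log2 fold change of 0.80 (SE 0.27, adjusted p = 0.0463, limma). Wild-type libraries held few reads on Dnah8, and 6 of the 8 omissions of a single library ended the call (adjusted p up to 0.135, limma). Per kilobase of its longest transcript, Dnah8 was the lowest heavy chain in wild-type libraries, at 0.80 normalized counts per kb, and Dnah9 the highest at 49.0.

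Of the 20 tested axonemal genes other than heavy chains, limma with all libraries called none, beside 22.0% of all tested genes. An unadjusted p under 0.05 in limma was reached by 1, beside 35.5% of all tested genes. Of the log2 fold changes 13 were positive, and the median was 0.14. On the recovered reads edgeR, limma-voom and DESeq2 called none of them either, where DESeq2 gave an adjusted p to 51 of the 56 members. Without Mbd2-/- replicate 4, limma called 2 higher and 1 lower, beside 17.9% higher and 17.7% lower over all genes. The intermediate chains Dnaic1 and Dnaic2, which anchor the outer arm motors, had 0.13 and 0.25, neither called. Dnaic2 had 52.5, 49.7, 55.6 and 47.3 in wild-type and 47.2, 64.0, 81.3 and 55.7 in Mbd2-/- replicates 1 to 4, so that replicate 1 of the Mbd2-/- group lay lowest of all and replicate 3 highest. Rsph9, a protein of the radial spoke head and the most abundant of the spoke genes, had 154, 134, 134 and 165 in wild-type and 161, 158, 172 and 159 in Mbd2-/- replicates 1 to 4 (log2 fold change 0.15, adjusted p = 0.270, limma). The spoke genes Rsph1 (0.28), Rsph3a (-0.28), Rsph3b (0.28) and Rsph4a (-0.25) were not called, and Rsph3a and Rsph3b are close copies between which reads can be divided.

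Tektins, which form filaments along the doublets, were not called either. Tekt5, the most abundant, had 74.9, 94.8, 103 and 91.4 in wild-type and 99.6, 82.3, 135 and 92.3 in Mbd2-/- replicates 1 to 4 (log2 fold change 0.15, adjusted p = 0.486, limma). Of the central pair genes, Spag6 had 124, 125, 121 and 114 in wild-type and 111, 125, 124 and 135 in Mbd2-/- replicates 1 to 4. The genotypes overlapped almost fully (log2 fold change 0.03, 95% interval from -0.18 to 0.23). Spag6 has a close copy, Spag6l, with 0.29 (adjusted p = 0.485, limma). Spag17, a large central pair protein, had 31.5, 23.3, 27.3 and 27.6 in wild-type and 17.9, 15.5, 23.9 and 18.3 in Mbd2-/- replicates 1 to 4. Only Mbd2-/- replicate 3 reached the wild-type range, and the log2 fold change of -0.52 was not called (SE 0.21, adjusted p = 0.0766, limma). Without that library it was -0.64 and was called lower (adjusted p = 0.0424, limma).

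Some Spag genes of the symbol rule, among them Spag1, Spag5 and Spag9, are not structural axoneme genes. Spag9, a scaffold protein of JNK signalling, was by far the most abundant gene of the set, at 5250 ± 200 (SD, n = 4) in wild-type and 5037 ± 438 in Mbd2-/- libraries (log2 fold change -0.06, adjusted p = 0.467, limma). Spag1, which takes part in the assembly of dynein arms, had 0.20, and Spag5, a protein of the mitotic spindle, had -0.21, and neither was called. With Spag1, Spag4, Spag5, Spag6l, Spag7 and Spag9 left out and Dnali1 added, 27 axonemal genes were tested, of which 2 were called higher and 1 lower (11.1%, beside 22.0% of all tested genes), with a median of -0.11. Spag6l, the close copy of the central pair gene Spag6, was thus also left out, and Spag8, a protein found within the doublets, was kept.

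Dnali1, the light intermediate chain of inner arm dyneins, was called higher. It lies on chromosome 4 from 124732582 to 124742947 (minus strand), with 21.0, 37.6, 34.6 and 45.7 in wild-type and 61.3, 53.0, 55.8 and 44.2 in Mbd2-/- replicates 1 to 4. Replicates 1 to 3 of the Mbd2-/- group lay above all wild-type values, and replicate 4 lay below wild-type replicate 4. The log2 fold change was 0.65 (SE 0.21, adjusted p = 0.0316, limma). An exon of Gnl2 overlaps Dnali1 on the opposite strand, and since strand-specific counting is not stated, reads of the pair cannot be told apart. The same limit holds for Spag17 (Wdr3), Dnah11 (Cdca7l), Dnah17 (Pgs1) and Bbs12 (Cetn4, and Fgf2 on the same strand). Noncoding transcripts overlap further members. Dnali1 was not called by DESeq2 (0.55, adjusted p = 0.0592), edgeR (0.51, 0.0557) or limma-voom (0.52, 0.0586), nor in 4 of the 8 omissions of a single library.

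Rsph6a, Rsph14, Tekt2 and Tekt3 did not pass the filter. Rsph6a, a spoke head gene known from testis, had 6, 8, 3 and 9 reads in wild-type and 0, 1, 0 and 3 reads in Mbd2-/- replicates 1 to 4. Without the filter on low values it was called lower in limma, on counts near the detection limit of 3 reads. The other 3 genes had at most 12 reads in any library.

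**Figure D2:**
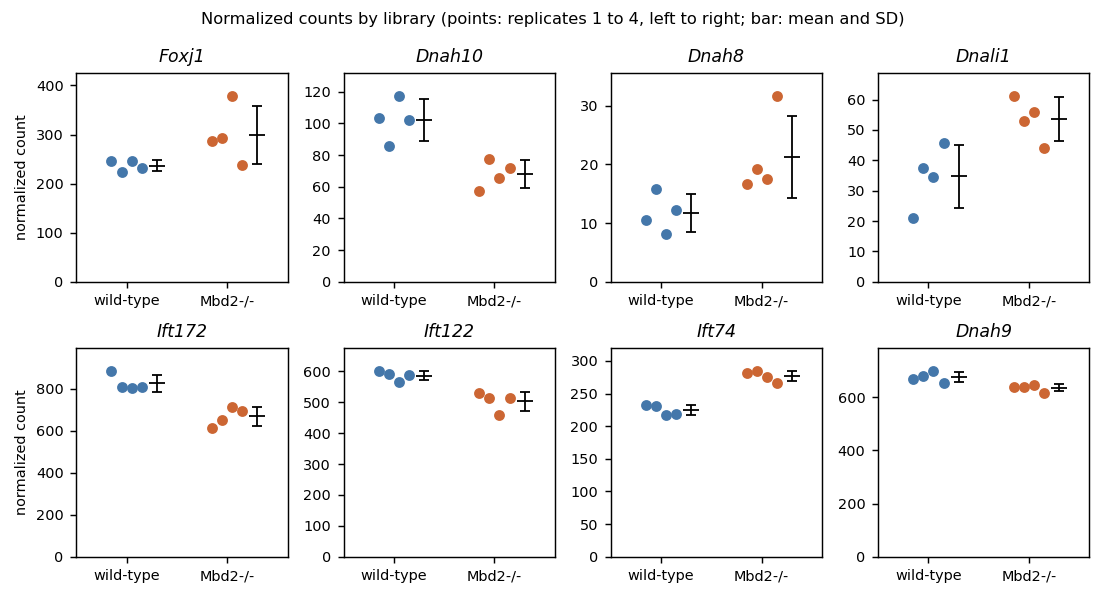
Normalized counts (y axis, starting at 0) of the 7 called cilium genes and of Dnah9 in 4 wild-type and 4 Mbd2-/- libraries (x axis), with replicates 1 to 4 from left to right in each group, and a bar for the mean and SD beside them. The genotypes do not overlap in Dnah10, Dnah8, Ift172, Ift122, Ift74 and Dnah9, and they overlap in Foxj1 and Dnali1 through Mbd2-/- replicate 4.

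Of the 14 Ift genes, Ift74 was called higher and Ift172 and Ift122 lower, and the median was 0.05. These calls are 21.4% of the Ift genes, close to the 22.0% of all tested genes. Ift172, a large IFT-B protein at the edge of the train, lies on chromosome 5 from 31555653 to 31593487 (minus strand) and had 886, 809, 801 and 807 in wild-type and 614, 648, 712 and 694 in Mbd2-/- replicates 1 to 4. The groups were widely separated, with a log2 fold change of -0.31 (SE 0.06, adjusted p = 0.0032, limma). Ift74, an IFT-B core protein that binds tubulin together with Ift81, rose instead. It lies on chromosome 4 from 94281182 to 94359920 (plus strand), with 232, 230.2, 218 and 219 in wild-type and 281, 285, 276 and 266 in Mbd2-/- replicates 1 to 4 (log2 fold change 0.30, SE 0.07, adjusted p = 0.0077, limma). The Mbd2-/- values were all higher, and both genes were called in all 11 alternatives with all libraries and in all 8 with 1 library left out. Ift81 itself had a log2 fold change of -0.01, with a 95% interval from -0.19 to 0.16.

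In IFT-A, Ift122 was lower. It lies on chromosome 6 from 115803488 to 115876717 (plus strand), with 603, 591, 565 and 587 in wild-type and 529.9, 512, 459 and 513 in Mbd2-/- replicates 1 to 4 (log2 fold change -0.22, SE 0.06, adjusted p = 0.0210, limma). No Mbd2-/- library reached the wild-type range, but 4 of the 8 omissions of a single library ended the call (adjusted p up to 0.0654, limma), as did removal of the length trend (-0.17, adjusted p = 0.0674). Ift140, also of IFT-A, had 396, 407, 396 and 426 against 364, 360.3, 347 and 362, with no overlap, and just missed the threshold (-0.18, adjusted p = 0.0545, limma). It was called lower with upper quartile scaling, with a minimum mean of 50 and without Mbd2-/- replicate 4. Ift43, the small IFT-A protein, had 0.18 (adjusted p = 0.347). Of the other IFT-B genes, Ift20, which carries cargo from the Golgi, had 381, 321, 395 and 371 in wild-type and 412, 419, 426 and 396 in Mbd2-/- replicates 1 to 4 (0.17, adjusted p = 0.101, limma). The remaining 8 (Ift22, Ift27, Ift46, Ift52, Ift57, Ift80, Ift81 and Ift88) lay between -0.08 and 0.20 and were not called. Ift88, whose loss removes cilia in mice, had 181 ± 10.5 and 185 ± 26.3 (SD, n = 4), with a 95% interval of the log2 fold change from -0.19 to 0.24.

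No Bbs gene was called in limma with all libraries among the 8 tested, beside 22.0% of all tested genes. An unadjusted p under 0.05 in limma was reached by 1, beside 35.5% of all tested genes. DESeq2, edgeR and limma-voom called none of them either. Without Mbd2-/- replicate 4, limma called Bbs1 lower (-0.18, adjusted p = 0.0361), beside 17.7% called lower over all genes. Their log2 fold changes ran from -0.18 in Bbs1 to 0.20 in Bbs5, with a median of -0.037. Bbs1, a BBSome subunit and the most abundant Bbs gene, had 580, 615, 657 and 603 in wild-type and 529.9, 594, 507 and 545 in Mbd2-/- replicates 1 to 4. Only Mbd2-/- replicate 2 reached the wild-type range (-0.18, SE 0.07, adjusted p = 0.0698, limma). Bbs9, another subunit, had 348 ± 9.93 and 349 ± 7.28 (SD, n = 4), and the 95% interval of its log2 fold change ran from -0.13 to 0.14. Bbs10 and Bbs12, which resemble chaperonins and help the BBSome to assemble, had -0.04 and 0.0022.

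Axonemal and transport genes were then set side by side. Of 32 axonemal genes tested, 1 was called higher and 1 lower (6.25% in all), 14 were positive and 18 negative, and the median was -0.076. Of 22 transport genes, all of which passed the filter, 1 was called higher and 2 lower (13.6%), 12 were positive and 10 negative, and the median was 0.0035. Neither share exceeded the 22.0% of all tested genes. Within the axonemal genes, the heavy chains had a median of -0.27 and the others 0.14. Transport genes were expressed at a higher level, with a median of 105 normalized counts per kb of longest transcript in the wild-type libraries, against 13.8 for the 33 axonemal genes with a known length. Without Mbd2-/- replicate 4 the calls were 2 higher and 6 lower among axonemal and 3 higher and 4 lower among transport genes, beside 17.9% higher and 17.7% lower over all genes.

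Fold changes of the cilium genes fell with transcript length, as they did in the whole transcriptome. The log2 fold change fell with the length of the longest annotated transcript over all tested genes (Spearman's rho of -0.46, n = 14184), over the cilium genes with a usable length (-0.62, n = 53), over the axonemal genes (-0.51, n = 29) and over the transport genes (-0.80, n = 22). These are descriptions across genes of the same 8 libraries. The 10 heavy chains with a usable length are the 10 cilium genes of at least 10000 bases. Of these 9 were negative, with a median of -0.23, and the 274 tested genes of that length had a median of -0.15, with 23.4% called lower. At the other end, all 9 cilium genes under 1500 bases (among them Ift20, Ift22, Ift27 and Rsph9) were positive with 0 called in limma, beside a median of 0.24 and 34.9% called higher among 1905 genes of that length. With this trend on length taken out of every library, the heavy chain median became -0.073, that of the other axonemal genes -0.015 and that of the transport genes -0.051. Dnah8 and Ift74 were then still called higher and Dnah10 and Ift172 lower, beside 8.1% higher and 6.79% lower over all genes, and Foxj1 (0.28, adjusted p = 0.0632, limma), Dnali1 (0.57, 0.0585) and Ift122 were not. What links length and fold change was not tested.

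**Figure D3:**
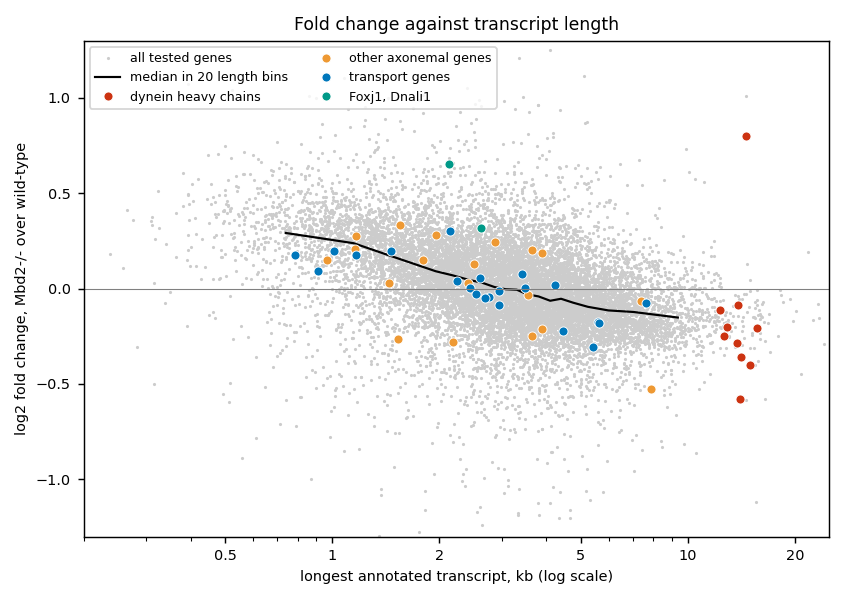
Log2 fold change (y axis, Mbd2-/- over wild-type) against the longest annotated transcript in kb (x axis, log scale) for all tested genes with a length (grey) and for the cilium genes by class, with the black line for the median in 20 length bins. The 31 tested genes beyond 1.3 on either side are not drawn, and apart from Dnah8 all heavy chains lie below 0, at the right end of a line that falls with length.

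Class medians were also taken within single libraries, and the order of the classes was not the same in all of them. As the median difference from the wild-type mean, the heavy chains lay at -0.42, -0.21, -0.28 and -0.12 in Mbd2-/- replicates 1 to 4 and at 0.03, -0.16, 0.07 and 0.04 in wild-type replicates 1 to 4. Wild-type replicate 2 was thus lower than Mbd2-/- replicate 4. The Ift genes stayed within -0.05 and 0.11 and the Bbs genes within -0.06 and 0.04 in every library, with the genotypes overlapping. The choroid plexus markers, in contrast, lay between 0.72 and 0.84 in the Mbd2-/- libraries and the 16 thalamus markers between -0.53 and -0.45, with 12 of the 16 called lower and sums of 7401 to 7617 in the wild-type and 5163 to 5782 in the Mbd2-/- libraries. Of 12 markers of hippocampal neurons, 2 were called higher (Bok and Spink8) and 3 lower (among them Wfs1), with sums of 18154 to 18855 and 17417 to 18006. Over all tested genes 12.0% were called higher and 10.0% lower. With the length trend removed all 12 calls of thalamus markers were kept, and of the hippocampal markers Spink8 was not called (0.0055, adjusted p = 0.976, limma) and Zbtb20, named after its values were seen, was called higher (0.24, 0.0077). The part of the tissue composition of the samples in the ciliary values was not tested.

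**Figure D4:**
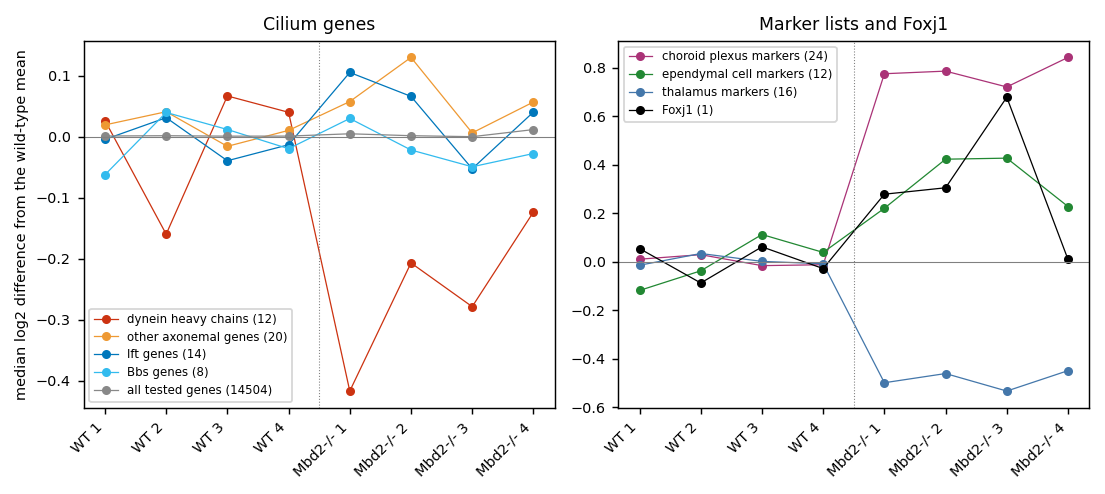
Median log2 difference from the wild-type mean (y axis) in each of the 8 libraries (x axis) for the classes of cilium genes (left) and for marker lists and Foxj1 (right), with the number of genes in brackets. The heavy chains lie between -0.42 and -0.12 in the Mbd2-/- libraries while the Ift and Bbs genes stay near 0, and in Mbd2-/- replicate 4 Foxj1 is at 0.01 and the choroid plexus markers are at 0.84.

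Other genes of the motile cilium were scored from lists written by symbol. Of 13 tested genes in a list of ciliogenesis regulators and RFX factors, 0 were called higher and 2 lower in limma, Rfx5 (-0.29) and Rfx7 (-0.29). The RFX factors were listed by name, and whether Rfx5 and Rfx7 act on cilia was not tested. An unadjusted p under 0.05 in limma was reached by 6 of the 13, beside the 35.5% of all genes. With the length trend removed 2 were called higher, Rfx3 (0.16, adjusted p = 0.0321, limma) and Rfx4 (0.26, 0.0439), and 1 lower, Rfx5. Rfx3, the most abundant X-box binding factor of the list and one with a known role in ciliogenesis, had 2328 ± 100.3 and 2388 ± 312 (SD, n = 4) in wild-type and Mbd2-/- libraries (log2 fold change 0.03 without removal of the trend). Of 25 genes for the assembly and docking of axonemal dyneins none was called in limma and 2 passed an unadjusted p under 0.05, with a median of 1.9e-04, and with the length trend removed 1 was called lower, Ccdc65 (-0.46, adjusted p = 0.0291, limma). Dnal1, a light chain and the most abundant of them, had 1785 ± 46.8 and 1787 ± 93.9 (SD, n = 4). Of 30 other motile axoneme genes 3 were called higher and 0 lower, among them Nme5 (0.37) and Cetn2 (0.32), beside the background of 12.0% higher and 10.0% lower. Neither Nme5 nor Cetn2 was called with the length trend removed, where 1 gene of the list was called higher, Lrriq1 (0.46, adjusted p = 0.0498, limma), and 0 lower. Cetn2 is a centrin that is also expressed outside motile cilia.

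Genes that act with the Ift and Bbs proteins under other names had calls in both directions. Of 20 such transport genes 2 were called higher, Hspb11 (0.49) and Cluap1 (0.25), and 4 lower. The latter were the kinesin-2 subunits Kif3a and Kifap3, the ciliary kinesin Kif17 and the dynein-2 chain Wdr60. The calls are to be read beside 12.0% higher and 10.0% lower over all genes, and of the 6 only that of Kif3a was kept with the length trend removed. Kif3a had 1745, 1844, 1790.4 and 1802 in wild-type and 1375, 1458, 1245 and 1489 in Mbd2-/- replicates 1 to 4, without overlap (log2 fold change -0.37, SE 0.06, adjusted p = 5.9e-04, limma). Kif3a and Kifap3 also serve transport along axons. Of 8 partners of the BBSome, the chaperonin-like Mkks (0.26) and the subunit Bbip1 (0.36) were called higher and the ubiquitin ligase Trim32 lower (-0.31, adjusted p = 5.5e-04, limma), and all 3 were also called with the length trend removed. Of 27 genes of the transition zone and basal body, Tmem237 (0.31) was called higher and Ahi1 (-0.28) lower, with a median of 0.0060, and of the pair Ahi1 was also called with the length trend removed.

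The genes of the neuronal primary cilium that carry out signalling had 0 of 20 called higher in limma and 4 lower, namely Gpr161, Pkd1, Inpp5e and Adcy3, with 5 at an unadjusted p under 0.05, beside 10.0% called lower and 35.5% at that unadjusted p over all genes. With the length trend removed, of these 4 only Gpr161 was called lower, and Gli3, a transcription factor of Hedgehog signalling, was called higher (0.24, adjusted p = 0.0370, limma). Gpr161, a ciliary receptor that restrains Hedgehog signalling, had 1103, 1101, 1120.4 and 1096 in wild-type and 758, 842, 840 and 879 in Mbd2-/- replicates 1 to 4. The groups were far apart (log2 fold change -0.41, SE 0.06, adjusted p = 2.1e-04, limma), and the value with the length trend removed was -0.42. Adcy3, the adenylyl cyclase that marks neuronal cilia, had 737 ± 26.5 and 614 ± 43.1 (SD, n = 4), and its difference of -0.26 on the log2 scale passed the test (adjusted p = 0.0080, limma). Sstr3, a somatostatin receptor of the same cilia, had 410 ± 14.4 and 401 ± 20.9 (SD, n = 4), with a log2 fold change of -0.03 that was not called, and it was named after its values were seen.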

How the data were processed

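Libraries of rRNA-depleted total RNA were compared, 4 wild-type and 4 Mbd2-/-, each from 2 mice, sequenced as paired reads of 100 bases. Per the labels and methods, the authors discarded duplicate reads before a STAR alignment to mm9 and a DESeq2 normalization, and versions, the read counter and strand setting are not given in the sources used here. The deposited signal values are normalized counts, reads that the authors divided by a size factor for each library. Fold changes, Wald statistics and p-values of the authors' own comparison stand in the same deposited table and were not used.

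Reads were recovered as multiples of the smallest value in a library, and 100% of values were whole to within 0.01. With 8087750 to 23790825 reads on genes in a library, precision was set by the spread between libraries, and totals cover counting error only. Nothing states that the pools of a group were independent litters, so p-values measure the spread between these pools. log2(normalized count + 1) was fitted without a block in limma 3.58.1 (R 4.3.3, trend, robust) for genes with a mean of at least 10. On simulated counts with 14497 genes this test recovered 55.2% of genes changed 1.3-fold, 91.0% of those changed 1.5-fold and 97.0% of those changed 2-fold, with 7 false calls. The simulation changed only 67, 67 and 66 genes, all above a minimum mean, with an assumed dispersion. It held no length trend and no library apart from its group, so these rates are not the power of the comparison made here. The exact permutation test was used for Mbd2 and Foxj1.

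Symbols were matched to GENCODE vM1 on mm9 (16812 directly, 1290 by synonym). Dnah7a and Dnah7c, whose models there are fragments, and Spag6l had no usable length. Promoter windows are from RefSeq (GRCm38.p6), and 50 of 53 were placed on mm9 by an exact match. Alternatives comprised count models on recovered reads (DESeq2 1.42.0, edgeR 4.0.16 with its quasi-likelihood test, limma-voom), TMM or upper quartile scaling, pseudocounts of 0.5 and 5, no filter or a mean of at least 50, a replicate block, the length trend removed from each library, a narrower list of axonemal proteins and the omission of each library. Named genes were Mbd2, Foxj1, the most abundant and the called members of each role, the 5 largest changes, and from each list up to 3 called genes and the most abundant. Other members are named to account for the set, and Rfx4, Ccdc65, Lrriq1 and Gli3, called only with the length trend removed, were named after their values were seen. Members and lists were chosen with earlier results of these data known, so a pattern among them is no independent support.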

Additional observations from a re-analysis of the deposited data

Results flagged for a closer look

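Each of the 56 tested cilium genes, and Mbd2, was checked in each genotype for a single library far from the other 3, by the gap to the nearest library as a share of the range. Of 114 groups of 4 libraries 3 stood out, and chance alone gives about 1 in 20. Ift27, a small GTPase of IFT-B, had 92.3 normalized counts in Mbd2-/- replicate 4, below the 132 to 137 of the other Mbd2-/- libraries. Dnah2, an inner arm heavy chain, had 115 in wild-type replicate 2, below the 138 to 142 of the other wild-type libraries. Ift172 had 886 in wild-type replicate 1, above the 801 to 809 of the others, and without that library its log2 fold change was -0.27 and was still called (adjusted p = 0.0184, limma). Without Mbd2-/- replicate 4, limma called Ift27 higher, beside 17.9% of all genes. Without wild-type replicate 2 it called Dnah2 lower, beside 7.26% of all genes. Neither gene was called with all libraries.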

How the results depend on the processing

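Foxj1 stayed higher under every alternative listed, but its call was lost with limma-voom (0.30, adjusted p = 0.0501), upper quartile scaling (0.31, 0.0550), no filter on low values (0.32, 0.0576, limma) and the length trend removed (0.28, 0.0632), and with 1 library left out its log2 fold change ran from 0.20 to 0.42. The axonemal genes called higher were 0 with DESeq2 and with a mean of at least 50, which both gave Dnah8 no adjusted p. They were also 0 with no filter and 2 with the narrower list of axonemal proteins, and with 1 library left out they ran from 0 to 2. The axonemal genes called lower were 2 with edgeR, with no filter and with the replicate block, and 1 to 6 with 1 library left out, the 6 without Mbd2-/- replicate 4. The transport genes called lower were 1 with the length trend removed, where their median was -0.051, 3 with upper quartile scaling and with a mean of at least 50, and 1 to 4 with 1 library left out, and those called higher were 1 to 3. Over all genes 2112 were called with the length trend removed and 2073 (14.3%) to 5156 (35.6%) with 1 library left out, and no scaling moved the median of all genes by more than 0.012. Mbd2 kept its direction, at -0.56 to -0.35 with 1 library left out, and its call in 5 of those 8 cases. Replicate numbers did not pair the libraries, since the deviations of same-numbered libraries correlated at -0.10, -0.06, 0.07 and 0.04. With the replicate block, 3192 genes were called, Dnah7a became called lower (adjusted p = 0.0451, limma), and no other call on a named member or on Mbd2 changed. Where a result moved, the cause was not tested, apart from the genes that a stricter filter or DESeq2 left without an adjusted p. Depth limits the statements on Dnah8, Dnah7a, Tekt4 and Sntn, which had few reads in several libraries.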

Other observations

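Levels of the cilium genes in the wild-type hippocampus spanned a wide range per kilobase of the longest transcript. Among the transport genes they ran from 22.2 normalized counts per kb in Bbs10 to 439 in Ift22, with Ift20 at 314 and Bbs4 at 218. Among the 10 dynein heavy chains with a usable length they ran from 0.80 in Dnah8 to 49.0 in Dnah9, and the next heavy chains were Dnah6 (15.1), Dnah1 (13.5) and Dnah5 (13.3). Foxj1 had 90.3 normalized counts per kb. The highest axonemal symbols were Spag9 (710.3), Spag7 (250.02) and Rsph9 (152), and the lowest were Dnah8, Tekt3 (1.32) and Dnah17 (1.56). These are levels of the whole tissue, and the lengths are those of the longest annotated transcript, which need not be the form expressed.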
